A study of Mus musculus with 2 samples.

Results

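RNA of 34 genes of the complement system was described in whole liver of mouse embryos, out of the 43346 genes in the deposited tables. The members were taken by name: the components of the classical, lectin, alternative and terminal parts of the cascade, their regulators in plasma and on membranes, and the receptors of the C3a and C5a fragments. All 34 were matched to a row of both gene tables. The study measured total RNA longer than 200 nt in liver of healthy embryos of the B6NCrl strain at day 15.5 of development. Its single group held 2 libraries, labelled as biological replicates, each made from 10 ng of RNA with spike-in RNA added. Replicate 1 pooled the livers of 78 embryos and replicate 2 those of 62 embryos, male and female together, so a value is an average over many animals and over every cell type of the organ. There was no treated, mutant or control group, which leaves comparisons between genes within the tissue and of replicate 2 with replicate 1.

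Complement is a set of plasma proteases, recognition proteins and membrane proteins that marks particles for uptake and lyses cells. The classical route starts when C1q binds antibody or other targets, the lectin route when mannose-binding lectins or ficolins bind sugars, and the alternative route amplifies C3 cleavage on surfaces. All routes cleave C3, after which C5 to C9 assemble the membrane attack complex. Hepatocytes are the known main source of most plasma components, whereas C1q and properdin are known chiefly as products of macrophages and other myeloid cells.

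The tissue label was checked against markers. All 11 hepatocyte markers, all 13 macrophage markers, all 10 granulocyte markers and all 9 erythroid markers were detected, at summed levels of 45643, 1040, 5478 and 151609 TPM in replicate 1 and of 35658, 930, 5931 and 160805 TPM in replicate 2. TPM is the share of a gene in all transcripts after correction for transcript length, scaled to a fixed total from which spike-ins were left out. The highest markers in replicates 1 and 2 were Trf for hepatocytes (15233 and 10337 TPM) and Lyz2 for macrophages (697 and 629 TPM). For granulocytes it was S100a8 (2294 and 2805 TPM) and for erythroid cells Hbb-bs (78130 and 83367 TPM). The macrophage sum was thus mostly Lyz2. Exocrine pancreas markers summed to 68.0 and 8.84 TPM in replicates 1 and 2, the one list of markers in which any gene passed 2-fold between the libraries. Spike-ins held 2.24% and 2.03% of the expected counts, and genes held 34039426 and 44200838 expected counts. In such bulk tissue, fewer cells of a type and less RNA per cell cannot be told apart.

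At 1 TPM or more in both libraries, 30 of the 34 members were detected, where 28.4% of all genes and 53.1% of protein-coding genes were. The exceptions were Cfd, C7, Cd46 and C3ar1. Of the members, 23 reached 10 TPM in both libraries, and 4 reached 100 TPM: C3, Cfb, Cfi and C1qb. The median member stood at 49.9 and 38.6 TPM in replicates 1 and 2, and the median detected gene at 10.9 and 10.5 TPM. All members together summed to 2267 and 1863 TPM, which was 0.227% and 0.186% of the total. When the members were ordered by mean TPM, 19 of the 33 pairs of neighbours had overlapping ranges over the 2 libraries, so the order is firm only in steps. Cfi, C1qb and Serping1 were each separated from the member above them, while Serping1, Cd59a, Fcna, Clu, C8g and Cr1l formed a run in which each range overlapped the next.

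**Figure D1:**
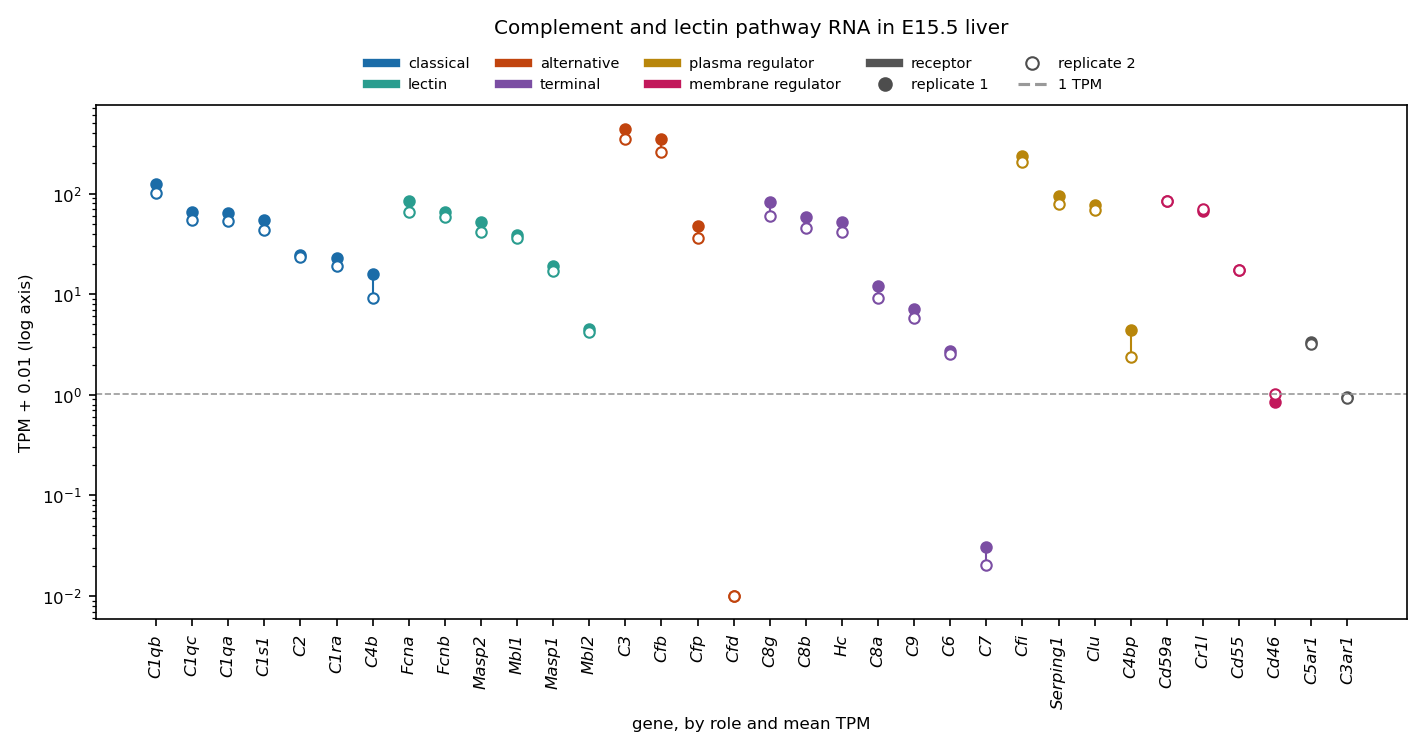
TPM of each of the 34 members in replicate 1 (filled) and replicate 2 (open), on a log axis after adding 0.01, grouped by role and ordered by mean within a role, with a dashed line at 1 TPM. C3 lies highest at 441 and 347 TPM, while C7 and Cfd lie far below the line and Cd46 and C3ar1 close to it.

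The alternative part, in which C3 was counted, held the highest levels. C3, the protein on which all routes converge (chr17:57203970-57228136, GRCm38), was measured at 441 TPM in replicate 1 and 347 TPM in replicate 2, from 57297 and 61652 expected counts. It ranked 192 and 280 among all genes. Cfb, the protease zymogen of the alternative C3 convertase, stood at 347 and 260 TPM. The C3 range and the Cfb range overlapped, although C3 was above Cfb in both libraries, by 1.30 ± 0.0428 times (SD, n = 2). Cfp, which encodes properdin, the stabiliser of that convertase, was at 47.6 and 36.1 TPM. Cfd encodes the protease that cleaves factor B and is known mainly from adipose tissue. No read was assigned to it in either library, and a count of 0 allows up to 3 counts, or 0.117 and 0.0867 TPM. The substrate and the zymogen of the alternative convertase were therefore among the most abundant members at the RNA level, while the activating protease was not detectable at this depth.

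The classical part was measured in full, with all 7 members detected. The 3 chains of C1q lie within a stretch of chromosome 4 with gaps of 3616 and 2851 bases between the genes. C1qb had 124 and 101 TPM, C1qa 64.2 and 53.5 TPM, and C1qc 65.2 and 54.6 TPM in replicates 1 and 2. C1qa and C1qc had overlapping ranges, with a ratio of C1qc to C1qa of 1.02 ± 0.00411 (SD, n = 2), while C1qb was 1.91 ± 0.0309 times C1qa. The chains are known to be needed in equal number in the protein, and their RNA was not in that proportion.

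The proteases of the C1 complex were lower than C1qb. C1s1, which cleaves C4 and C2, was at 55.2 and 43.6 TPM, and C1ra, which activates C1s, at 22.6 and 18.9 TPM. C1s1 exceeded C1ra by 2.37 ± 0.0958 times (SD, n = 2), and the genes lie 6901 bases apart on opposite strands of chromosome 6. C2, which supplies the protease of the classical C3 convertase, was at 24.6 and 23.5 TPM. It lies 85 bases from its paralogue Cfb on chromosome 17, on the same strand, yet Cfb was 12.6 ± 2.14 times higher (SD, n = 2). A read-through gene that spans both, Gm20547, had 5.84 and 0 expected counts. C4b, the other part of the classical convertase, had 15.8 and 9.06 TPM and the widest relative spread of the detected classical members. C4b has a near-identical copy, C4a, at 1.81 and 1.86 TPM. The authors' posterior SD of the count, a measure of reads that fit either copy, was 3.09 and 3.08 for each gene, against 1913 and 1510 expected counts for C4b and 36.5 and 45.7 for C4a.

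In the lectin part all 6 members were detected, and the ficolins exceeded the mannose-binding lectins. Fcna, the plasma ficolin, was at 83.6 and 65.1 TPM, and Fcnb, a ficolin known from myeloid cells, at 65.6 and 59.1 TPM. Their ranges overlapped only at the edge, from 65.1 to 65.6 TPM. Mbl1 had 38.8 and 35.9 TPM and Mbl2 4.45 and 4.23 TPM, a ratio of 8.59 ± 0.157 (SD, n = 2). Both encode mannose-binding lectins of mouse plasma. The ficolins together were 3.27 ± 0.251 times the mannose-binding lectins together. Of the proteases that bind these lectins, Masp2, which cleaves C4 and C2, was at 52.2 and 41.3 TPM, and Masp1, which activates Masp2, at 18.9 and 16.9 TPM. The ratio of Masp2 to Masp1 was 2.60 ± 0.221, but much of the Masp2 value came from a short transcript that is described with the transcripts.

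Over all transcripts of each gene, the terminal part was uneven, from undetected C7 to C8g. Hc, the gene of C5, was at 52.1 and 41.0 TPM, and C3 was 8.45 ± 0.00263 times Hc (SD, n = 2). C6, the next protein of the attack complex, had 2.73 and 2.55 TPM, and Hc was 17.6 ± 2.10 times C6. C7, which anchors the growing complex in the membrane, was assigned 2 and 1 expected counts, or 0.0207 and 0.0103 TPM. C6 and C7 lie 173794 bases apart on chromosome 15. The chains of C8 were at 12 and 9.17 TPM for C8a, 58.1 and 44.9 TPM for C8b and 81.5 and 60.0 TPM for C8g. C8a and C8b, whose products are paralogous pore-forming chains, lie 11130 bases apart on chromosome 4, and C8b was 4.86 ± 0.0535 times C8a. C8g, a small lipocalin chain, was 6.65 ± 0.152 times C8a, or 3.93 ± 0.206 times over protein-coding transcripts alone (SD, n = 2). C9, which polymerises into the pore, had 7.10 and 5.78 TPM. All ranges of C5 to C9 genes were thus separated from each other except those of Hc and C8b.

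Early components (7 classical, 6 lectin and 4 alternative genes together) summed to 7.02 ± 0.193 times the 7 terminal ones (SD, n = 2). The values were 6.88 and 7.16 in the 2 libraries. These sums were not divided by the number of genes, so the ratio is not a difference in level per gene. On the log2 scale this was 2.81 ± 0.0398. An exact sign test over 2 libraries cannot go below 0.5, so the ratio is set beside its spread only. It rested in part on C3 and Cfb, without which it was 1.73 on the log2 scale. The alternative part held 35.7% ± 1.63 of the TPM of all members, the plasma regulators 18.5% ± 0.567 and the classical part 16.4% ± 0.0512. The lectin part held 11.8% ± 0.232, the terminal part 9.10% ± 0.457, the membrane regulators 8.37% ± 1.32 and the receptors 0.205% ± 0.0243. C3, on which all routes converge, was counted in the alternative part and made up 441 and 347 of its 835 and 643 TPM. The plasma regulators summed to 410 and 352 TPM, so the lead of the alternative part rested on where C3 was counted.

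**Figure D2:**
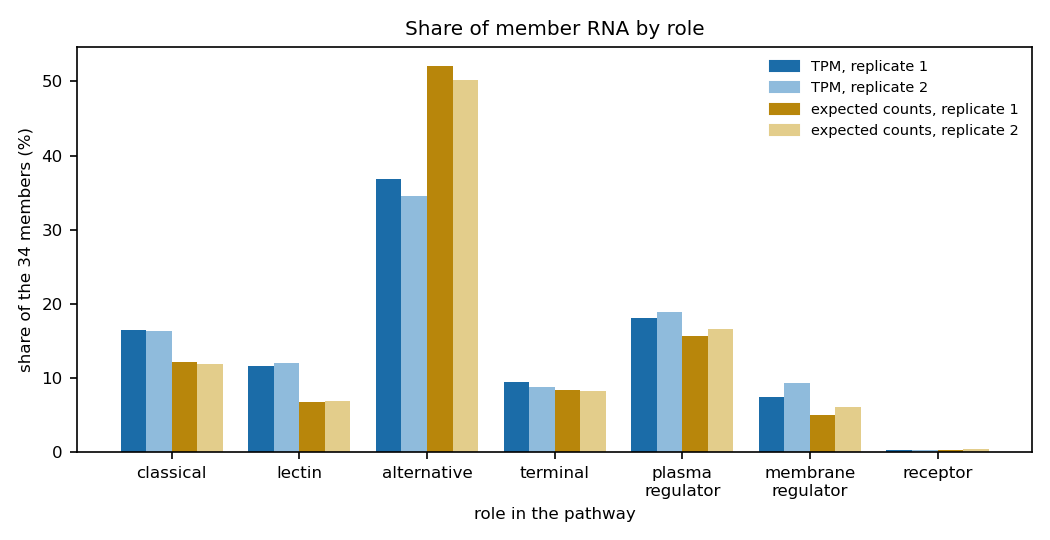
Share of each role (percent of the 34 members) by TPM and by expected counts, with 1 bar for each library. The alternative part, in which C3 is counted, is highest on either scale, at 35.7% of TPM and 51.1% of expected counts on average. Counts, unlike TPM, are not corrected for transcript length.

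Among the plasma regulators, Cfi stood highest. It encodes the protease that inactivates C3b and C4b, and it was at 234 and 203 TPM. C4bp, a cofactor for the cleavage of C4b, was at 4.42 and 2.38 TPM from 265 and 237 expected counts. The ratio of Cfi to C4bp was 52.8 and 85.3 in the 2 libraries, so its size is loosely fixed. Serping1, the inhibitor of C1r, C1s and the Masp proteases, was at 94.2 and 77.9 TPM. It exceeded the sum of C1ra and C1s1 by 1.23 ± 0.0259 times (SD, n = 2). Clu, or clusterin, which binds the forming attack complex in plasma, had 77.7 and 68.1 TPM.

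Membrane regulators showed 3 genes at high levels and Cd46 at the detection limit. Cd59a, which blocks C9 insertion, had 83.3 and 85.2 TPM. Cr1l, the rodent regulator known as Crry that acts on C3 convertases, had 67.3 and 69.6 TPM. Cd55, the decay-accelerating factor, had 17.2 and 17.5 TPM. Cr1l was 3.95 ± 0.0379 times Cd55 (SD, n = 2). Cd46, a cofactor protein known in mice mostly from testis, was at 0.839 and 1.00 TPM. It lies 5132 bases from Cr1l on chromosome 1, on the same strand, where the mean levels were 0.920 and 68.5 TPM. Of the anaphylatoxin receptors, C5ar1 was at 3.30 and 3.21 TPM and C3ar1 at 0.943 and 0.919 TPM. C5ar1 was 3.50 ± 0.00786 times C3ar1, and both were low beside the genes of their ligands.

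Promoter sequence of the members was read from RefSeq (GRCm38.p6). Of the 34 members, 26 were matched, with 28 transcription starts, and the 250 bases before each start were searched on both strands. Windows are shown for the highest member of the classical, lectin, alternative and terminal parts that had 1 listed start and a window outside its annotated gene, so that the letters can be set beside the levels. They are 5′ to 3′ on the strand of the gene, and capitals mark matched motifs.
C1qb upstream window, chr4:136886201-136886450, minus strand: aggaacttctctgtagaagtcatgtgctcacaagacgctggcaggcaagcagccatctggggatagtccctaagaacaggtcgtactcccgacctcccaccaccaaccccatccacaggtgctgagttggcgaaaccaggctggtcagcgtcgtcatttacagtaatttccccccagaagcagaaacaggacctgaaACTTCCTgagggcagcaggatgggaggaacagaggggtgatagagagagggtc
Masp2 upstream window, chr4:148602294-148602543, plus strand: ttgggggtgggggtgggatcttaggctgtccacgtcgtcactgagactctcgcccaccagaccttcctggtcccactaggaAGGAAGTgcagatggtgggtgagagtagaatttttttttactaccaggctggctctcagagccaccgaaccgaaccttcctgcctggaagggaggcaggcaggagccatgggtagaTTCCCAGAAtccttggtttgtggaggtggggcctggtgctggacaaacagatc
C3 upstream window, chr17:57228137-57228386, minus strand: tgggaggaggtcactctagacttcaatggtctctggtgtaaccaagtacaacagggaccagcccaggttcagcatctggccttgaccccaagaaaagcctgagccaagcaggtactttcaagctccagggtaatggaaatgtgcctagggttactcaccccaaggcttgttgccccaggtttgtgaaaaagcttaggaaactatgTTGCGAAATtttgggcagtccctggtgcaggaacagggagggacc
C8b upstream window, chr4:104766067-104766316, plus strand: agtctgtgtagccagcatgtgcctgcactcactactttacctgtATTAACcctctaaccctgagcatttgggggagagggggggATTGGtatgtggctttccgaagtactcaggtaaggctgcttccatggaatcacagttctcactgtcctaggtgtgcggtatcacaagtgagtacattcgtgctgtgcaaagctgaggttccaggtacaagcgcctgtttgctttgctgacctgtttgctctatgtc
The C1qb capitals are AGGAAGT, a PU.1 site, on the opposite strand, 53 bases before the start. In Masp2 they are AGGAAGT at 169 bases and TTCNNNGAA, a STAT site, at 53 bases before the start. C3 has TTNNGNAAT, a C/EBP site, at 45 bases before the start. C8b has GTTAAT, a part of an HNF1 site, and CCAAT, both on the opposite strand, at 206 and 166 bases before the start. No matches overlapped in these windows.

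Over all member windows, AGGAAGT was found in 6 of 28 (21.4%), against 7.69% of the 32851 promoters in the table. Those were C1qb, C1qc, Fcna, Fcnb, C5ar1 and Masp2, which include known myeloid genes such as C1qb, C1qc, Fcnb and C5ar1. The window of Cfp, whose product properdin is also known from myeloid cells, held no AGGAAGT, nor did that of the receptor gene C3ar1. C1qa had no matched promoter. GTTAAT was found in 7 windows (25.0%), against 6.43% of all: those of C1ra, C4bp, C7, C8a, C8b, Cfp and Hc. TTNNGNAAT was found in 8 windows (28.6%) of C1ra, C1s1, C3, C6, C7, C9 and Fcna, against 10.2% of all. Both windows of C1s1 were counted, although they overlap and share a matched site, TTAGGGAAT. CCAAT was in 6 windows (21.4%) against 33.8% of all, and TATAAA in 3 (10.7%) against 12.4%. AGATAA, a site of erythroid factors, was in 3 (10.7%) against 9.99%. TTCNNNGAA was in 3 windows (10.7%) against 7.02%, and TGANTCA, an AP-1 site, in 2 (7.14%) against 6.75%. C7, which was not detected, held both GTTAAT and TTNNGNAAT. The match counts are descriptions of these windows, made with no test. Some of the counted windows lie partly or wholly within the annotated gene, such as that of C1ra and the C8g window that held TGANTCA.

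Replicate 2 was then compared with replicate 1, which shows how firmly the levels are fixed between pools. No member with 5 TPM or more in either library differed by more than 2-fold, where 0.672% of 8781 genes did. Of the 30 members with a mean of 1 TPM or more, 27 had a lower TPM in replicate 2 and 3 a higher one. Of all 12714 genes at that level, 61.5% were lower. By expected counts per library total, the exact 95% counting interval of the ratio (Clopper-Pearson) lay below equality for 22 members, where it did for 21.7% of all genes, and above it for 1 member, where it did for 19.9%. The median log2 ratio of TPM + 1 was -0.26 for the members and -0.05 for all genes. With 1 library on each side there is no replicate check of these differences and no p-value. Intervals cover counting error only, since amplified reads without molecular identifiers are not independent molecules.

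The direction was shared by the secreted parts and not by the membrane regulators, a difference between parts that was not tested. Median log2 ratios were taken over members with a mean of 1 TPM or more. They were -0.26 for 7 classical, -0.15 for 6 lectin and -0.39 for 3 alternative members. For 6 terminal members the median was -0.35 and for 4 plasma regulators -0.23. For the 3 membrane regulators the median was 0.03. Cr1l was the one member whose interval lay above equality, with a count ratio of 1.06 (1.01 to 1.11). Cd55 had a ratio of 1.06 (0.980 to 1.15) and Cd59a of 1.03 (0.988 to 1.08), which counting error does not separate from equality. The receptor C5ar1 had a ratio of 1.02 (0.860 to 1.21).

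By expected counts, C4b differed most. It was at 15.8 and 9.06 TPM, with a count ratio of 0.608 (0.568 to 0.651). C4bp was next by counts, at a ratio of 0.689 (0.576 to 0.824). Its estimated mean transcript length, by which TPM is scaled, was 2025 nt in replicate 1 and 2464 nt in replicate 2. On the TPM scale the order of these genes was not fixed: with a pseudocount of 1 the log2 ratio was -0.74 for C4b and -0.68 for C4bp, and with 0.1 it was -0.80 and -0.86. C3 had a count ratio of 0.829 (0.819 to 0.838) and Cfb of 0.781 (0.765 to 0.797), the narrowest intervals of the members. The C1q chains moved together, with ratios of 0.864 for C1qa, 0.845 for C1qb and 0.869 for C1qc. Fcna had a ratio of 0.807 (0.769 to 0.848) and Fcnb of 0.934 (0.881 to 0.989), and these intervals did not overlap.

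Marker lists are given beside this difference. The lists that moved furthest belong to neighbouring tissues. The pancreas markers with a mean of 1 TPM or more had a median log2 ratio of -1.89, with 6 of 6 lower. The skeletal muscle markers had a median of 0.53, with 5 of 6 higher and sums of 297 and 405 TPM. Median log2 ratios were -0.30 for the hepatocyte markers, 10 of 11 of them lower, and -0.15 for the macrophage markers, 10 of 13 of them lower. The granulocyte median was 0.05 and the erythroid median -0.10, although the erythroid sum was higher in replicate 2. The 17 measured coagulation genes, which are other plasma protein genes of the liver, had a median of -0.30, with 15 of 17 lower. The part of cell composition in the complement difference was not tested. Scaling by spike-ins, whose log2 factor was 0.15, moved the ratios up. All genes then had a median of 0.08, with 31.8% of them lower, and 22 members were lower and 8 higher. C2, C6, Mbl1, Mbl2 and C5ar1 changed sign under it, and none of these had an interval apart from equality. Relative to the median of all genes, the median member was lower by 0.21 on the log2 scale as reported and by 0.20 with spike-ins. Under each of the 4 scalings run, 26 of the 30 members lay below the median of all genes. Each scaling multiplies all genes of a library by the same factor, so members can move against that median only through the pseudocount. Agreement between the scalings is therefore no check of this position.

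**Figure D3:**
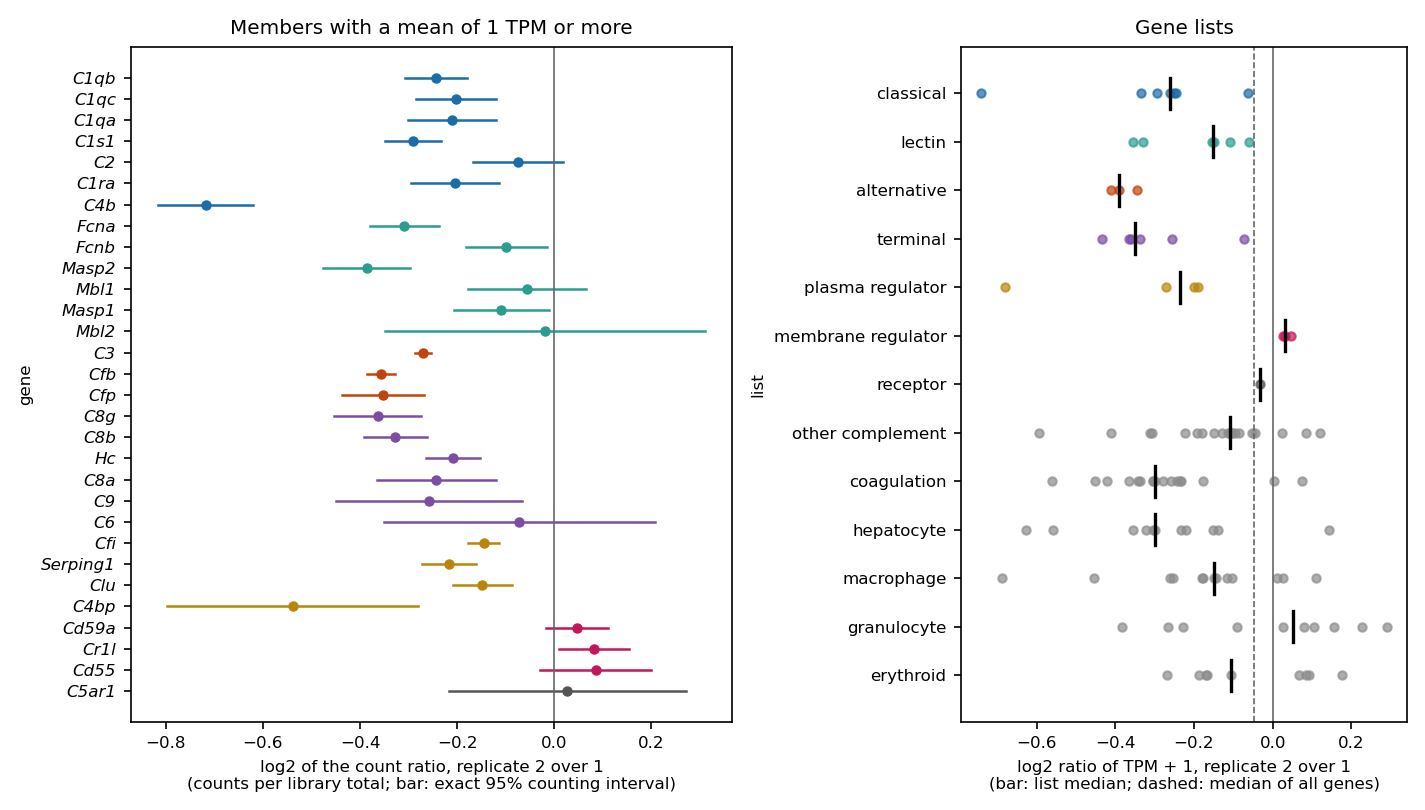
Left, log2 of the count ratio of replicate 2 to replicate 1 per library total for members with a mean of 1 TPM or more, with exact 95% counting intervals, coloured by role as at right. Right, log2 ratios of TPM + 1 for single genes of each role and marker list (points), with list medians (bars) and the median of all genes (dashed line). Most members lie left of 0 with the hepatocyte and coagulation genes, C4b farthest, and the 3 membrane regulators lie right of it.

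Transcripts were compared for the 26 members at 5 TPM or more in both libraries. Of these, 20 had more than 1 annotated transcript in the tables, and in all 20 the same transcript led in both libraries by TPM. In 11 genes the leading transcript held under 80% of the gene. The leading shares were 78.1% ± 4.39 for C1s1, 72.1% ± 2.50 for Cd59a, 70.8% ± 1.27 for C4b, 70.4% ± 3.52 for Masp2, 70.3% ± 4.60 for C2, 66.5% ± 0.0953 for Cd55 and 62.5% ± 3.05 for C8a (SD, n = 2). Lower shares were found for Hc at 55.8% ± 2.73, Cfb at 49.2% ± 2.42, Cr1l at 46.1% ± 1.62 and C8g at 32.6% ± 4.05. Reads that fit several transcripts of a gene were divided by the authors' estimate, so these shares are less certain than the gene levels.

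Masp2 was led by a short form. Masp2-202 has 738 nt in 5 exons and ends in an exon of its own, and Masp2-201 has 3058 nt in 11 exons and encodes the full protease. The coding sequence has 185 codons in the short form and 685 in the long form, stop included. The short product is known as MAp19 or sMAP, which binds lectins but lacks the protease domain. Both forms share their coding sequence up to an exon end at position 148603818 of chromosome 4 (GRCm38), from which they part as follows, with the shared bases in lower case and the separate bases in capitals.
Masp2-201: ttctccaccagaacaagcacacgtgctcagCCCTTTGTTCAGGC
Masp2-202: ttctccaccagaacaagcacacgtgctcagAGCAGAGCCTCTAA
The capitals of Masp2-202 end in its stop codon, TAA. Masp2-202 had 35.4 and 30.1 TPM and Masp2-201 13.0 and 8.77 TPM. By expected counts the order was the opposite, since the long form held 59.3% and 54.3% of the gene's counts. On a per-length scale, then, the protease form was 23.1% ± 2.63 of Masp2 (SD, n = 2). Its 13.0 and 8.77 TPM lay below the 18.9 and 16.9 TPM of the whole Masp1 gene. Masp1 has 1 transcript in the tables and 4 in GENCODE M21, so its forms were not separated. A part of Masp2 is thus set against all of Masp1. Masp2 overlaps Tardbp on the opposite strand, which had 5187 and 6869 expected counts, and Masp1 overlaps Rtp4, which had 189 and 406. Whether counting used strand was not stated in the labels or tables, so reads of such partners cannot be told apart.

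Transcripts without a complete coding frame led or followed in several members. In C8g the processed transcript C8g-204 led with 28.9 and 17.8 TPM, ahead of the protein-coding C8g-201 with 23.4 and 16.2 TPM. Protein-coding transcripts together held 44.4% and 46.9% of C8g. C8g overlaps Fbxw5 on the opposite strand, which had 1581 and 1811 expected counts. In C4b the retained-intron transcript C4b-203 followed with 29.2% and 28.3%, and in Cd59a the processed transcript Cd59a-202 with 25.0% and 28.6%. C8a-204, a processed transcript, held 26.3% and 18.8% of C8a. The one Mbl1 transcript in the tables, Mbl1-201, is annotated as a target of nonsense-mediated decay in GENCODE M21. That annotation lists 2 Mbl1 transcripts.

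Hc and Cfb were split among several forms. Protein-coding transcripts held 78.4% and 81.0% of Hc in replicates 1 and 2, and 100% and 99.8% of Cfb. In Hc, Hc-201 of 5445 nt had 28.1 and 23.7 TPM, and the short coding Hc-205 of 579 nt had 12.8 and 9.52 TPM. Hc-205 held 191 and 192 expected counts against 4680 and 5319 for Hc-201. In Cfb, Cfb-206 of 2397 nt had 177 and 124 TPM from 12652.5 and 11945.5 expected counts. The short coding Cfb-204 of 973 nt had 96.5 and 74.4 TPM from 2628 and 2729 counts. Cfb-208 of 905 nt had 41.9 and 32.1 TPM from 1052 and 1087 counts. The gene level of Cfb and its ratio to C2 include these short forms. The split between Cfb-201 and Cfb-202, a pair of forms of nearly the same length, was not fixed by the reads. Cfb-201 was given 1323 and 5.08 expected counts and Cfb-202 833 and 3018, but the posterior mean shares were 3.63% and 4.36% for Cfb-201 and 3.92% and 6.02% for Cfb-202, and the credibility bounds of the pair overlapped in both libraries. In Cr1l, Cr1l-201 had 30.3 and 32.9 TPM and Cr1l-202 14.5 and 13.8 TPM.

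**Figure D4:**
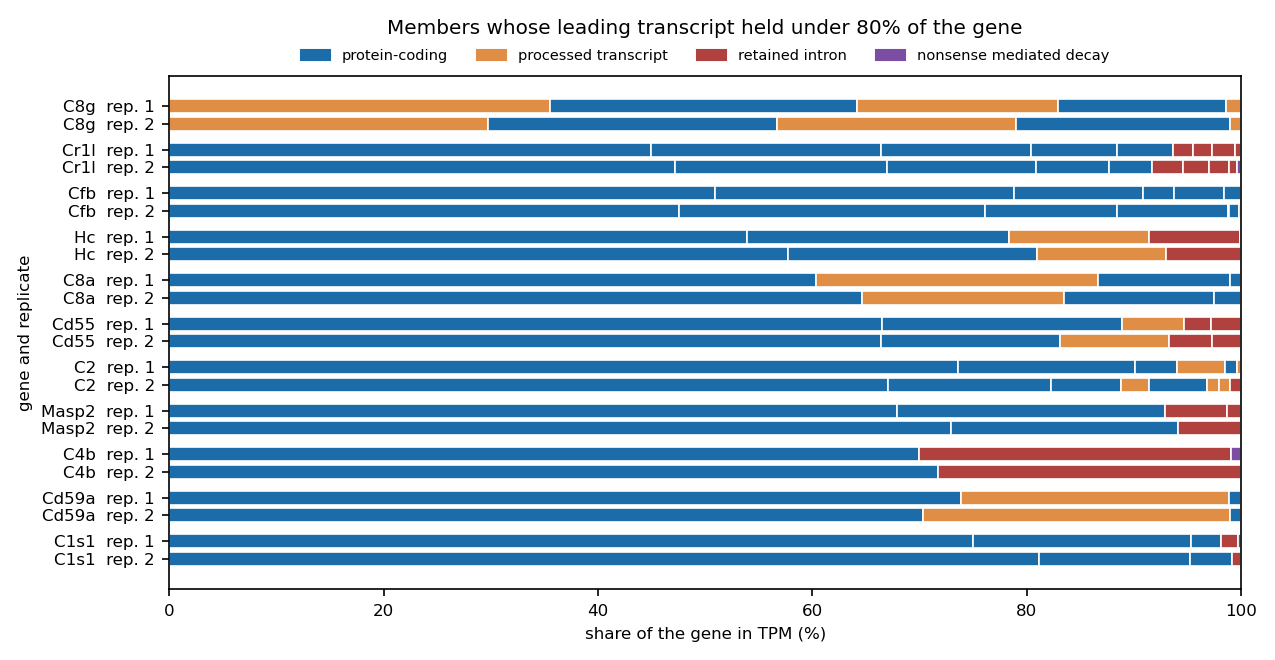
Share of each transcript (percent of the gene's TPM, segments in the same order in both libraries, coloured by annotated type) in the 11 members whose leading transcript held under 80%. C8g is led by a processed transcript at 32.6% on average, and Masp2 by its short coding form at 70.4%.

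Further genes of the complement system that are not among the 34 were taken from a list of 31, of which 21 were detected. At the same limit 28.4% of all genes and 53.1% of protein-coding genes were detected. None of those at 5 TPM or more passed 2-fold between the libraries, and the list had a median log2 ratio of -0.11, with 18 of 21 lower in replicate 2. Of all genes with a mean of 1 TPM or more, 61.5% were lower and the median was -0.05. The highest were Vtn, whose product vitronectin binds the attack complex, at 779 and 630 TPM, and Calr, a chaperone that binds C1q, at 465 and 436 TPM. C1qbp, a mostly mitochondrial protein named for binding C1q, had 150 and 159 TPM, and Cpb2, which inactivates C3a and C5a, had 130 and 122 TPM. The lowest detected was C4a, at 1.81 and 1.86 TPM. The list summed to 1922 and 1687 TPM, and Vtn and Calr were above every one of the 34 members in both libraries.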

How the data were processed

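Whole-liver total RNA of 1 group was measured in 2 libraries. Per the companion descriptions the tables were made on mm10 with annotation M4. No source used here names the quantifier. Expected counts, as deposited, are the unscaled number of reads that the authors' estimate gives to a gene or transcript. The deposited TPM are the authors' values per transcript length and library total. The credibility bounds and posterior SD columns, treated as signal, are as deposited by the authors and served as a guide to reads divided between genes. TPM was rescaled here to its full total after 97 spike-ins and 26248 entries with numeric identifiers were left out. Symbols and types came from GENCODE M21 and promoters from RefSeq GRCm38.p6. Of 175 listed symbols 1 was not matched.

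The members and lists were chosen with earlier results of these data known. All members are covered; of other complement genes the rule named the 4 highest, the lowest detected and any past 2-fold, and of transcripts those of members whose leading one held under 80% or was not coding. Fewer than all transcripts the rule gives are printed. The labels do not say whether the pools shared litters, so the spread between libraries may be partly technical. Over 17574 genes with at least 10 counts in total, chi-square per degree of freedom was 18.1, so the libraries differed beyond sampling noise. Log2 ratios of TPM used a pseudocount of 1 and have no interval. The counting interval belongs to ratios of rounded counts per library total, without a pseudocount. It was tested on simulated counts with sampling noise only, which these libraries exceed, so that test does not cover the spread between them. Results were recomputed with further detection limits, a smaller pseudocount (0.1), posterior mean TPM, scaling with edgeR 4.0.16 (TMM), DESeq2 1.42.0 (median of ratios) or spike-ins, and expected counts. Ranking transcripts by expected counts and the ratio over coding transcripts were chosen after the data were seen. SciPy 1.17.1 gave the intervals, pandas 2.3.3 and NumPy 2.4.6 the tables, under Python 3.11.15, and matplotlib 3.10.9 the plots. R was version 4.3.3.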

Additional observations from a re-analysis of the deposited data

How the results depend on the processing

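The number of members detected was 23 with a limit of 10 TPM and 30 to 32 under the other alternatives run, and no member passed 2-fold under any scaling, pseudocount or filter run. The median log2 ratio of the members lay between -0.27 and -0.12 over its alternatives, nearest to 0 with spike-in scaling. By expected counts in place of TPM, the shares were 11.9% for the classical, 6.75% for the lectin, 51.1% for the alternative and 8.31% for the terminal part, 16.1% for plasma regulators, 5.47% for membrane regulators and 0.270% for receptors. Without the highest member of each part they were 20.3%, 15.3%, 31.1%, 10.6%, 14.7% and 0.0848% for the classical, lectin, alternative and terminal parts, plasma regulators and receptors. The log2 ratio of early to terminal components was 3.07 by expected counts and 1.73 without C3 and Cfb, and 2.78 to 2.84 when either library was left out. By expected counts 19 of 20 genes had the leading transcript they had by TPM, the exception being Masp2. For the 23 members whose counting interval lay apart from equality, 115 log2 ratios were recomputed: none reversed and 24 moved by 0.1 or more, 23 of them with spike-in scaling, under which every one of the 23 moved. Of the other members, C2, C5ar1, C6, Mbl1 and Mbl2 changed sign with spike-in scaling. Over protein-coding transcripts alone, which was added once transcript values were known, the ratio of C8g to C8a was 3.93. No paired analysis was possible because there is 1 group. With 2 libraries no spread within a condition can be tested, and C7, Cfd and other members with few counts are limited by depth.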
